A study of Mus musculus with 6 samples.

Results

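A set of 10 genes that define the myeloid and erythroid lineages was examined as a contrast to the B cell programme in the chromatin of mouse germinal centre (GC) B cells. They were listed by name: Gata2, Tal1, Gfi1b and Klf1, Cebpa and Cebpb, and Csf1r, Itgam, Mpo and Elane, 10 of the 21864 protein-coding genes of the GENCODE M21 annotation of GRCm38. For each gene, peaks of H3K4me1 and H3K4me3 were taken at the promoter (within 5 kb of a transcription start site, TSS), in the gene body and at 5 to 50 kb from a TSS (distal). The data came from Mint-ChIP, a multiplexed ChIP-seq in which barcoded native chromatin of several samples is precipitated together, with 3 libraries for H3K4me1 and 3 for H3K4me3. All 6 libraries were made from 50000 sorted spleen cells of WT mice immunised with sheep red blood cells 8 days earlier, so there was no second genotype or treatment. The cells are labelled centrocytes, the GC cells of the light zone, while the study's methods call them GC B cells, and the labels do not say whether the replicates came from separate animals. An H3K27Ac antibody is given in the extraction protocol, whereas titles, antibody entries and methods give H3K4me1 and H3K4me3, by which the marks are called here.

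H3K4me3 is placed at active and poised promoters, above all at CpG-rich ones, and H3K4me1 marks enhancers and the flanks of promoters. B cells descend from progenitors in which GATA2 and TAL1 act, and commitment to the B lineage by PAX5 and EBF1 is known to silence genes of the alternative blood fates. Among the genes examined, the transcription factors act from stem and progenitor cells onward, while Mpo and Elane encode granule proteins made in developing neutrophils.

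The start sites of the 10 genes differed widely in CpG content. In the 300 bases upstream of the 5′-most TSS, Cebpb had 48 CpG, Cebpa 27 and Gata2 26. The median was 10 over the 21851 genes with a complete window. The other 7 genes lay below that median, with 6 in Tal1 and Itgam, 5 in Gfi1b, 4 in Mpo, 3 in Klf1 and Elane and 1 in Csf1r. Windows are printed 5′ to 3′ on the gene's strand with CpG in capitals (GRCm38.p6, RefSeq). Gfi1b (chr2:28621983-28622282, minus strand) and Tal1 (chr4:115056126-115056425, plus strand) had a TSS under H3K4me3 in every library. At Tal1 that TSS lay 1385 bp downstream of the 5′-most one, whose upstream window is printed here. Cebpb (chr2:167688615-167688914, plus strand) was the most CpG-rich, and Mpo (chr11:87793281-87793580, plus strand) had no promoter peak.
Gfi1b: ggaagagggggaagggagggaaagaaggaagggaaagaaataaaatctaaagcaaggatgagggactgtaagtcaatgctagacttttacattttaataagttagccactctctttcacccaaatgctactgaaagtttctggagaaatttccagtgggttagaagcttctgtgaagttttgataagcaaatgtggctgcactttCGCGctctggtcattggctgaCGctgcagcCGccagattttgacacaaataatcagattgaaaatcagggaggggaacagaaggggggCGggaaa
Tal1: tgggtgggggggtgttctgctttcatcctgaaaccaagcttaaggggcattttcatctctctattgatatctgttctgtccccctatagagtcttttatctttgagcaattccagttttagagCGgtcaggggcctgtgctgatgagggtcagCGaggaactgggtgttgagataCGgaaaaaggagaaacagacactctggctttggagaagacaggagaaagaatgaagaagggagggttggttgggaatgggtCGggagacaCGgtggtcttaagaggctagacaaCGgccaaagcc
Cebpb: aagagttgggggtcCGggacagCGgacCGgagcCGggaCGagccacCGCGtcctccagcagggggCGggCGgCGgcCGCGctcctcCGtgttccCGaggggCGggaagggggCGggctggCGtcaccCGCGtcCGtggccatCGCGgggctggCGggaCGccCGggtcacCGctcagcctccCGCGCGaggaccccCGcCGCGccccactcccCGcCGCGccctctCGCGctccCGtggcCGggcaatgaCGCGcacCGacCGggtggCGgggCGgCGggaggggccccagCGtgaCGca
Mpo: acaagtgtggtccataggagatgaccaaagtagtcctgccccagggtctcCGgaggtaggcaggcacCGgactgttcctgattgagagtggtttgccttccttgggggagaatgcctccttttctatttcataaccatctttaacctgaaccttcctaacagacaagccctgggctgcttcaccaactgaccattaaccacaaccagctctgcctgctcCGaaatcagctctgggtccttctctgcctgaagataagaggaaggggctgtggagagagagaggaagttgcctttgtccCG

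None of these 4 windows overlapped an annotated exon. A GATAA word on either strand, the core that GATA factors bind, was present upstream of Tal1, Gfi1b, Klf1, Csf1r and Mpo, 5 of the 10 genes, and in 25.2% of all windows. GAGGAA, an ETS core read by PU.1, was present upstream of Tal1, Itgam, Mpo and Elane, 4 of the 10, and in 26.8% of all windows. TATAAA was found upstream of Cebpa alone and in 13.5% of all windows. These words describe the letters of the windows and mark no bound site.

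The libraries were uneven in size. The H3K4me1 libraries held 24136, 13923 and 11922 peaks with a median width between 253 and 270 bp, and the H3K4me3 libraries held 46707, 41936 and 42862 peaks with a median width between 821 and 857 bp. The files give peaks and no read totals, so the depth of the libraries is unknown. From the fold enrichment and p-value, the height of the median H3K4me1 peak was 6 fragments in each library, so a missing H3K4me1 peak means not detected at this depth. H3K4me1 was called as narrow and H3K4me3 as broad peaks, so mark and calling mode cannot be told apart in any comparison of covered length. All 10 genes of a B cell and GC list (among them Pax5 and Bcl6) had promoter H3K4me3 in 3 of 3 libraries, but so did 9 of 10 housekeeping genes and 56.2% of all genes, so this is a weak check of the cell type. Whether some sorted cells were not B cells was not tested. In bulk chromatin a peak carried by few cells and a weak peak in all cells cannot be told apart.

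H3K4me3 was counted within 5 kb of a TSS and over a TSS, and by definition the count over a TSS cannot be the larger one. Gata2, Tal1, Gfi1b, Klf1, Cebpa, Cebpb and Itgam had a promoter H3K4me3 peak in 3 of 3 libraries, 7 of 10, where 56.2% of all protein-coding genes had one. Only Tal1 and Gfi1b had a TSS inside an H3K4me3 peak in 3 of 3 libraries, 2 of 10 against 38.4% of all genes. H3K4me1 reached 3 of 3 libraries at the promoter of Gfi1b alone, 1 of 10 against 6.17% of all genes, and Gfi1b was also the only one of the 10 with both marks (6.16% of all genes). No H3K4me1 peak covered a TSS of the 10 genes in 3 of 3 libraries, as was the case for nearly all genes (0.0274% had one). Mpo was the only gene with no promoter peak of either mark in any library, a state shared by 33.9% of all genes.

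The covered length, the number of promoter bases under peaks, was compared between the marks. It was higher for H3K4me3 in every library than for H3K4me1 in any library at the same 7 genes and at 55.8% of all genes. At Gata2, Cebpb and Itgam H3K4me1 covered 0 bp in all libraries, so there the order follows from the presence of H3K4me3 alone. It therefore adds little to the count of genes with promoter H3K4me3. At each of the 7 a two-sided exact permutation test over the 20 assignments of 6 libraries gave p = 0.1, the smallest value that 3 against 3 libraries allow, with a Benjamini-Hochberg adjusted p of 0.179 over all genes. Csf1r and Elane gave exact p = 0.4 and Mpo, without any peak, p = 1. No gene could therefore pass an adjusted threshold in this design. The median of the mean H3K4me3 length was 1073 bp over the 10 genes and 1032 bp over all genes.

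**Figure D1:**
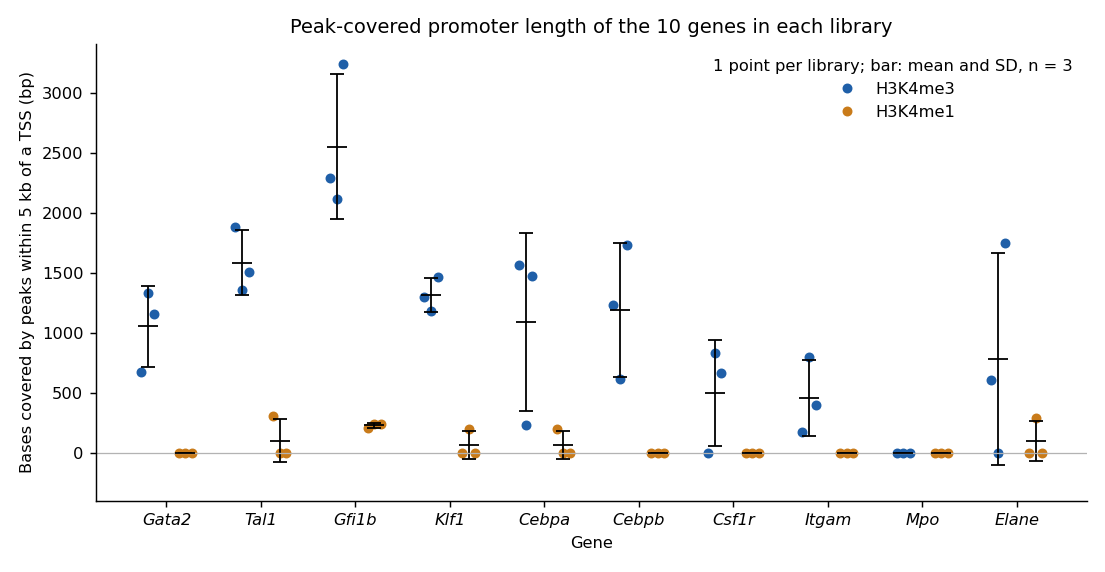
Bases covered by peaks within 5 kb of a TSS (y axis, bp) for each of the 10 genes (x axis), with 1 point per library (H3K4me3 in blue, H3K4me1 in orange) and the mean and SD of 3 libraries as bars. Gfi1b was highest in H3K4me3, between 2120 and 3241 bp, and Mpo was at 0 in all 6 libraries.

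Gfi1b (ENSMUSG00000026815.14, chr2:28609450-28621982, minus strand) encodes a zinc finger repressor required for erythroid and megakaryocyte development. Its H3K4me3 covered 2291, 2120 and 3241 bp of the promoter in replicates 1, 2 and 3 (2551 ± 604 bp, mean ± SD, n = 3, as for the genes below), the longest of the 10 genes and above 80.8% of all genes. A broad peak lay over the start site and the 5′ UTR in each library, with deposited fold enrichments of 6.81, 5.94 and 6.14. H3K4me1 covered 205, 237 and 241 bp, and all 3 of these lengths were below the lowest H3K4me3 length. In replicates 1 and 2 the H3K4me1 peak began 116 and 85 bp downstream of the TSS and ended at 320 and 321 bp. In replicate 3 it lay upstream, between 555 and 315 bp before the TSS. The H3K4me1 peaks of the 3 libraries thus shared no base, and their heights at the summit were 6, 6 and 7 fragments, close to the median of the libraries.

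Tal1 (ENSMUSG00000028717.12, chr4:115056426-115071755, plus strand), a basic helix-loop-helix factor of stem, erythroid and megakaryocyte cells, followed with 1884, 1359 and 1509 bp (1584 ± 270 bp). The peaks began at 17 bp before the 5′-most TSS in replicate 1 and at 616 and 651 bp after it in replicates 2 and 3, so the bases common to all 3 lay around the second annotated TSS, 1385 bp downstream. Their fold enrichments of 8.63, 6.76 and 7.97 were higher than those of 94.9%, 87.0% and 95.4% of the peaks in the same library. A further H3K4me3 peak of replicate 2 lay in an intron, 7406 to 7690 bp downstream. Tal1 had an H3K4me1 peak in replicate 1 alone, 307 bp wide at 753 to 1059 bp downstream of the TSS, and none in the other two libraries.

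Klf1 (ENSMUSG00000054191.8, chr8:84901928-84905291, plus strand), the factor that switches on adult globin genes, carried H3K4me3 that started downstream of its TSS. The covered lengths of 1299, 1183 and 1467 bp (1316 ± 143 bp) varied least among the 7 genes. The peaks began 652, 588 and 485 bp downstream of the single annotated TSS and ended at 1950, 1770 and 1951 bp, over coding exons. The replicate 1 peak had a fold enrichment of 10.7, above 98.8% of the H3K4me3 peaks in that library, and those of replicates 2 and 3 had 6.28 and 5.95. H3K4me1 was called in replicate 2 only, as a 202 bp peak of 4 fragments inside the same stretch. No library had a peak of either mark over the Klf1 TSS itself.

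Gata2 (ENSMUSG00000015053.14, chr6:88193891-88207032, plus strand), a factor of stem and progenitor cells, had H3K4me3 in every library but hardly in the same place. Covered lengths were 675, 1333 and 1155 bp (1054 ± 340 bp), and H3K4me1 was 0 in all 3 libraries. The CpG-rich 5′-most TSS had a nearby peak in replicate 1 alone, at 112 to 599 bp downstream. The other peaks gathered near the second annotated TSS, 4443 bp downstream, at 5476 to 5662 bp in replicate 1, 5008 to 5766 bp in replicate 2 and 4322 to 5476 bp in replicate 3. These 3 peaks met in 1 base. Replicate 2 had a further peak 4900 to 4327 bp upstream, in an exon of the lincRNA Gm38708.

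**Figure D2:**
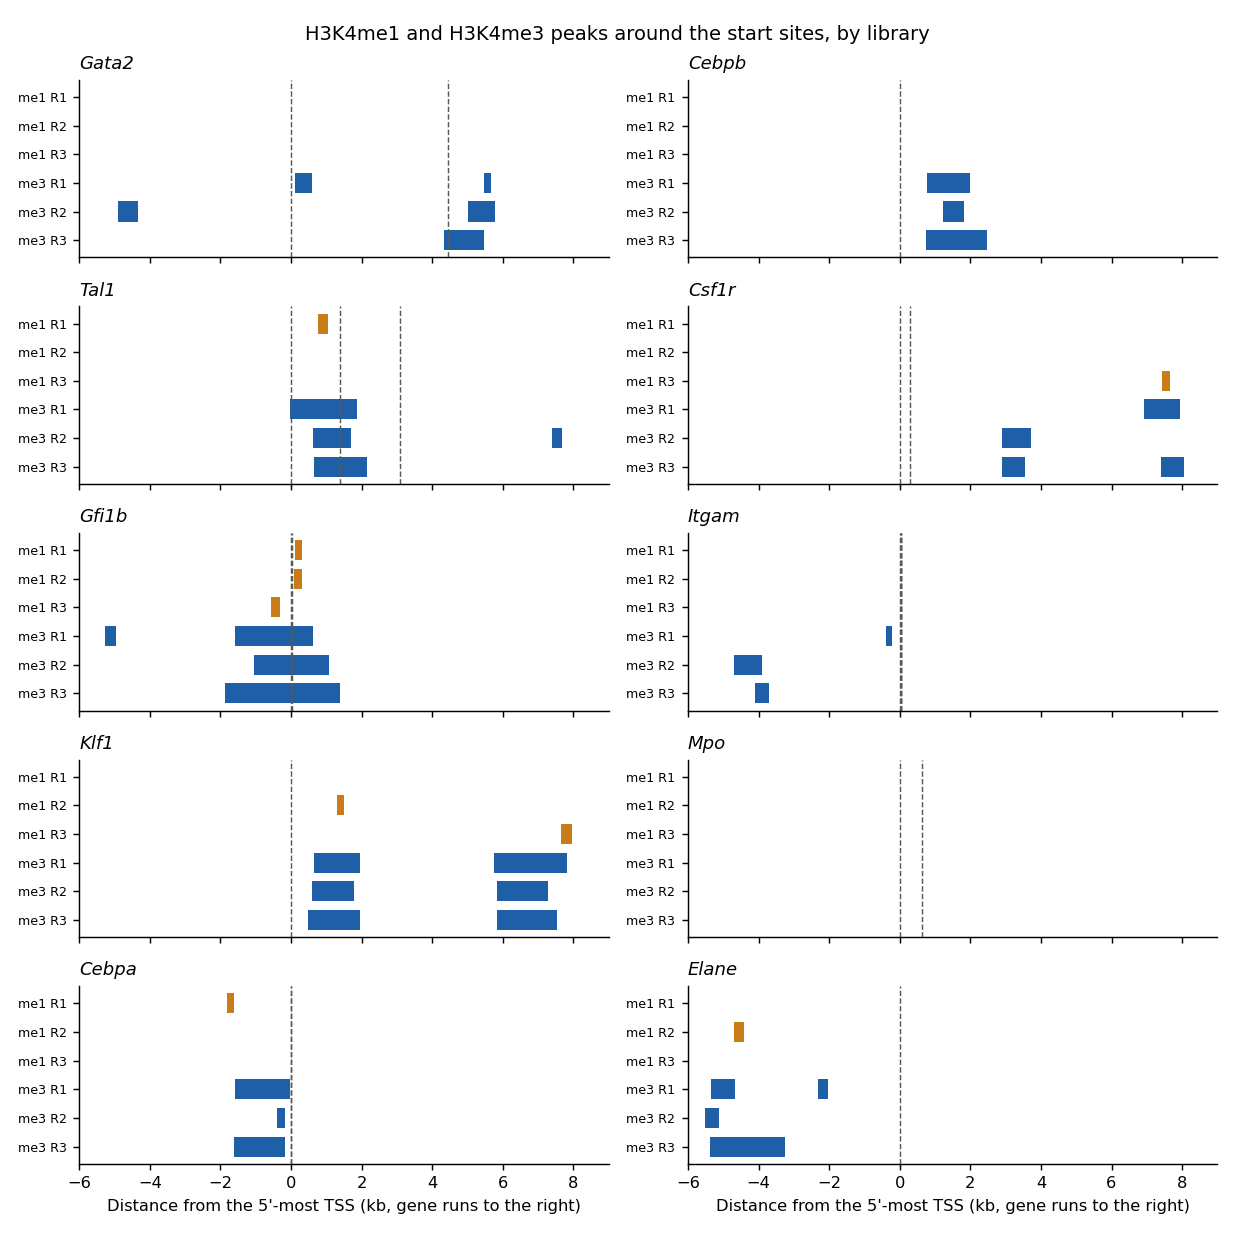
Peaks of each library (rows, H3K4me1 replicates 1 to 3 in orange and H3K4me3 replicates 1 to 3 in blue) against the distance from the 5′-most TSS in kb, with annotated start sites as dashed lines and each gene running to the right. Blue bars lie over a dashed line in all 3 libraries at Tal1 and Gfi1b, start after it at Klf1 and Cebpb, end before it at Cebpa and are missing at Mpo.

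The C/EBP factors, which drive granulocyte and macrophage differentiation, were marked to the side of their start sites. Cebpa (ENSMUSG00000034957.10, chr7:35119293-35121928, plus strand) had H3K4me3 over 1569, 234 and 1471 bp (1091 ± 744 bp), with replicate 2 far below the others. The peaks ended 30, 168 and 160 bp upstream of the TSS, over the antisense transcript Gm45091. Its H3K4me1 was a 202 bp peak in replicate 1, between 1808 and 1607 bp upstream. Cebpb (ENSMUSG00000056501.3, chr2:167688915-167690418, plus strand), a gene of 1504 bp, had H3K4me3 over 1231, 614 and 1730 bp (1192 ± 559 bp) and no H3K4me1 in any library. These peaks started 769, 1212 and 738 bp downstream of the TSS and ran past the end of the gene in all 3 libraries. Neither gene had a peak over its TSS in any library, although their upstream windows had as many CpG as, or more than, 87.6% and 99.1% of genes.

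Across all genes the share with promoter H3K4me3 was higher in classes with more upstream CpG, and the 10 lineage genes were read against their own class. Of the 7022 genes with 0 to 4 CpG, 18.9% had promoter H3K4me3 in 3 of 3 libraries and 9.27% had it over a TSS. Klf1, Csf1r, Mpo and Elane fell in this class, and Klf1 alone had promoter H3K4me3. Of the 3690 genes with 5 to 9 CpG, 50.4% had promoter H3K4me3 and 34.9% had it over a TSS. Tal1, Gfi1b and Itgam fell here, all 3 with promoter H3K4me3 and Tal1 and Gfi1b with a covered TSS. The 5361 genes with 10 to 19 CpG, none of them among the 10, had shares of 78.5% and 61.5%. Of the 5778 genes with 20 or more CpG, 84.4% had promoter H3K4me3 and 54.8% had a covered TSS. Gata2, Cebpa and Cebpb fell here, all 3 with promoter H3K4me3 and none with a TSS covered in 3 of 3 libraries. CpG was counted upstream of the 5′-most TSS, while H3K4me3 was counted at any annotated TSS. At Tal1 the TSS covered in 3 of 3 libraries lay 1385 bp downstream of the 5′-most one. At Gata2 each library had a peak near the TSS 4443 bp downstream. With 3 or 4 genes in a class these shares are a description, and no test was run.

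**Figure D3:**
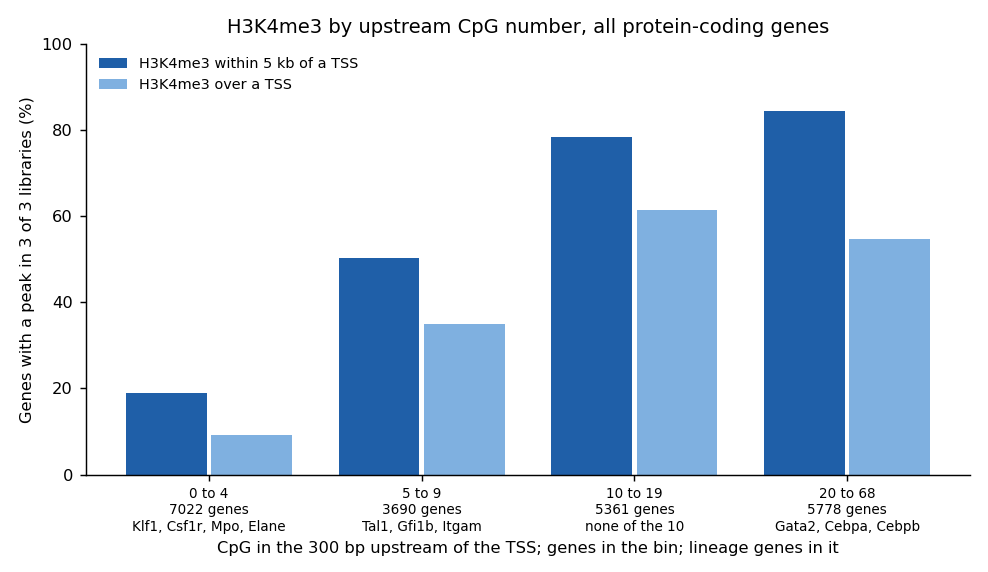
Share of all protein-coding genes (y axis, %) with H3K4me3 in 3 of 3 libraries. Dark blue bars count peaks within 5 kb of any TSS and light blue bars peaks over any TSS. Classes (x axis) are by the number of CpG in the 300 bases upstream of the 5′-most TSS. The lineage genes of each class are named under it. Promoter shares were 18.9% in the lowest class and 84.4% in the highest, and none of the 10 genes fell in the class of 10 to 19 CpG.

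Itgam (ENSMUSG00000030786.18, chr7:128062640-128118491, plus strand), which encodes the integrin chain CD11b, met the rule with short H3K4me3 peaks of 175, 797 and 395 bp (456 ± 315 bp). They lay 388 to 214 bp upstream of the TSS in replicate 1 and 4690 to 3894 and 4099 to 3705 bp upstream in replicates 2 and 3, so no base was common to the 3. Their fold enrichments of 2.98, 3.14 and 3.26 were low in each library, above 2.75%, 5.88% and 16.6% of its peaks. Repeats masked in the RefSeq sequence made up 61.1% of the replicate 1 peak. Promoter H3K4me1 was not detected at Itgam in any library.

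Csf1r (ENSMUSG00000024621.16, chr18:61100598-61132149, plus strand), the receptor for macrophage colony-stimulating factor, had promoter H3K4me3 in 2 of 3 libraries, with 0, 830 and 668 bp (499 ± 440 bp). Both peaks lay in an intron, 2882 to 3711 and 2893 to 3560 bp downstream of the 5′-most protein-coding TSS. A second stretch in the gene body, 6909 to 8051 bp downstream, had H3K4me3 in replicates 1 and 3 and an H3K4me1 peak in replicate 3. The nearest peak of either mark was 2602 bp from a Csf1r TSS.

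Elane (ENSMUSG00000020125.7, chr10:79886247-79888215, plus strand), which encodes neutrophil elastase, had 603, 0 and 1746 bp (783 ± 887 bp) of promoter H3K4me3. The SD exceeded the mean. The longer peaks, 5343 to 4668 bp upstream in replicate 1 and 5374 to 3255 bp upstream in replicate 3, were nearer to the TSS of Prtn3, the neighbouring gene for proteinase 3. A replicate 2 peak at the same place ended 5129 bp upstream and so fell just outside the 5 kb limit. When peaks were given to the nearest gene only, Elane kept 270 bp in replicate 1, between 2310 and 2041 bp upstream, and 0 in the other libraries. Its single promoter H3K4me1 peak, in replicate 2, was also nearer to Prtn3.

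Mpo (ENSMUSG00000009350.13, chr11:87793581-87804413, plus strand), which encodes the azurophil granule enzyme myeloperoxidase, was at 0 bp in all 6 libraries. It had no peak in the gene body either. The nearest peak of any library was an H3K4me3 peak of replicate 2, 15107 to 14245 bp upstream, and it had no counterpart in the other libraries. With a count of 0 peaks and unknown depth, H3K4me3 at Mpo was not detectable rather than shown to be absent.

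In the gene bodies, H3K4me1 was in 3 of 3 libraries at none of the 10 genes (6.64% of all genes) and H3K4me3 at Itgam alone (19.3% of all genes). The Itgam body peaks lay in introns 43200 to 48135 bp downstream of the TSS, in 2 stretches that each had 2 of the 3 libraries. Their nearest TSS was that of Itgax, which encodes CD11c. Several of these genes are so short that the 5 kb promoter window holds the whole body, as in Cebpb and Elane.

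Most distal peaks were nearer to a neighbouring gene. H3K4me1 was in 3 of 3 libraries at 5 to 50 kb from Gfi1b, Klf1, Cebpb, Itgam and Mpo, 5 of 10 against 20.4% of all genes. Counted only where the gene's own TSS was the nearest, it was left at Itgam, 1 of 10 against 3.52%. H3K4me3 was distal in 3 of 3 libraries at Gfi1b, Klf1, Cebpb, Itgam, Mpo and Elane, 6 of 10 against 60.3%, and by nearest TSS at Gfi1b, Cebpb and Itgam, 3 of 10 against 15.2%. The H3K4me1 libraries had 21, 9 and 14 distal peaks around the 10 genes, of which 2, 1 and 2 were nearest to the gene itself. The H3K4me3 libraries had 52, 38 and 46, of which 8, 5 and 8 were nearest to it. Merged over libraries, the peaks of the 10 genes formed 83 regions, of which 36 had H3K4me3 in 3 of 3 libraries, 3 had H3K4me1 in 3 of 3 and 32 were seen in 1 library only.

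The 3 regions with H3K4me1 in 3 of 3 libraries were the Gfi1b promoter, a region upstream of Itgam and a region upstream of Mpo. Between 14734 and 11246 bp upstream of Itgam, in intergenic sequence, all 6 libraries had a peak and Itgam was the nearest protein-coding gene. H3K4me3 peaks of 3079, 2960 and 2931 bp spanned it in replicates 1, 2 and 3, with fold enrichments of 5.88, 5.58 and 4.72. The H3K4me1 peaks of replicates 1 and 3 overlapped, 14191 to 13563 and 14056 to 13838 bp upstream, and had fold enrichments of 11.2 and 8.31, above 99.8% and 97.6% of the H3K4me1 peaks of their libraries. The replicate 2 peak lay apart, 11631 to 11246 bp upstream, with 4.85. The 300 bases around the summit of the replicate 1 peak (chr7:128048524-128048823, plus strand, GRCm38.p6, RefSeq) are shown because this H3K4me1 peak had the highest fold enrichment around any of the 10 genes, with repeat-masked bases in capitals.
Itgam upstream region: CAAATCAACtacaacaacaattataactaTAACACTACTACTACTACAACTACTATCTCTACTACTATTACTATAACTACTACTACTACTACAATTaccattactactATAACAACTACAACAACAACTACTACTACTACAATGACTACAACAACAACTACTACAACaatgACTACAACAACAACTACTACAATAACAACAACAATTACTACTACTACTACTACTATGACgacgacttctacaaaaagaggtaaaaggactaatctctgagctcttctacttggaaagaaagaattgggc
Of these 300 bases, 194 were masked, and the window held 38 ACT and 24 ACA triplets on the plus strand. Masked repeats made up 42.8%, 13.7% and 70.3% of the H3K4me1 peaks of replicates 1, 2 and 3, where the median H3K4me1 peak had 11.1%, 11.3% and 11.2%. The part of the repeat in the enrichment was not tested.

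**Figure D4:**
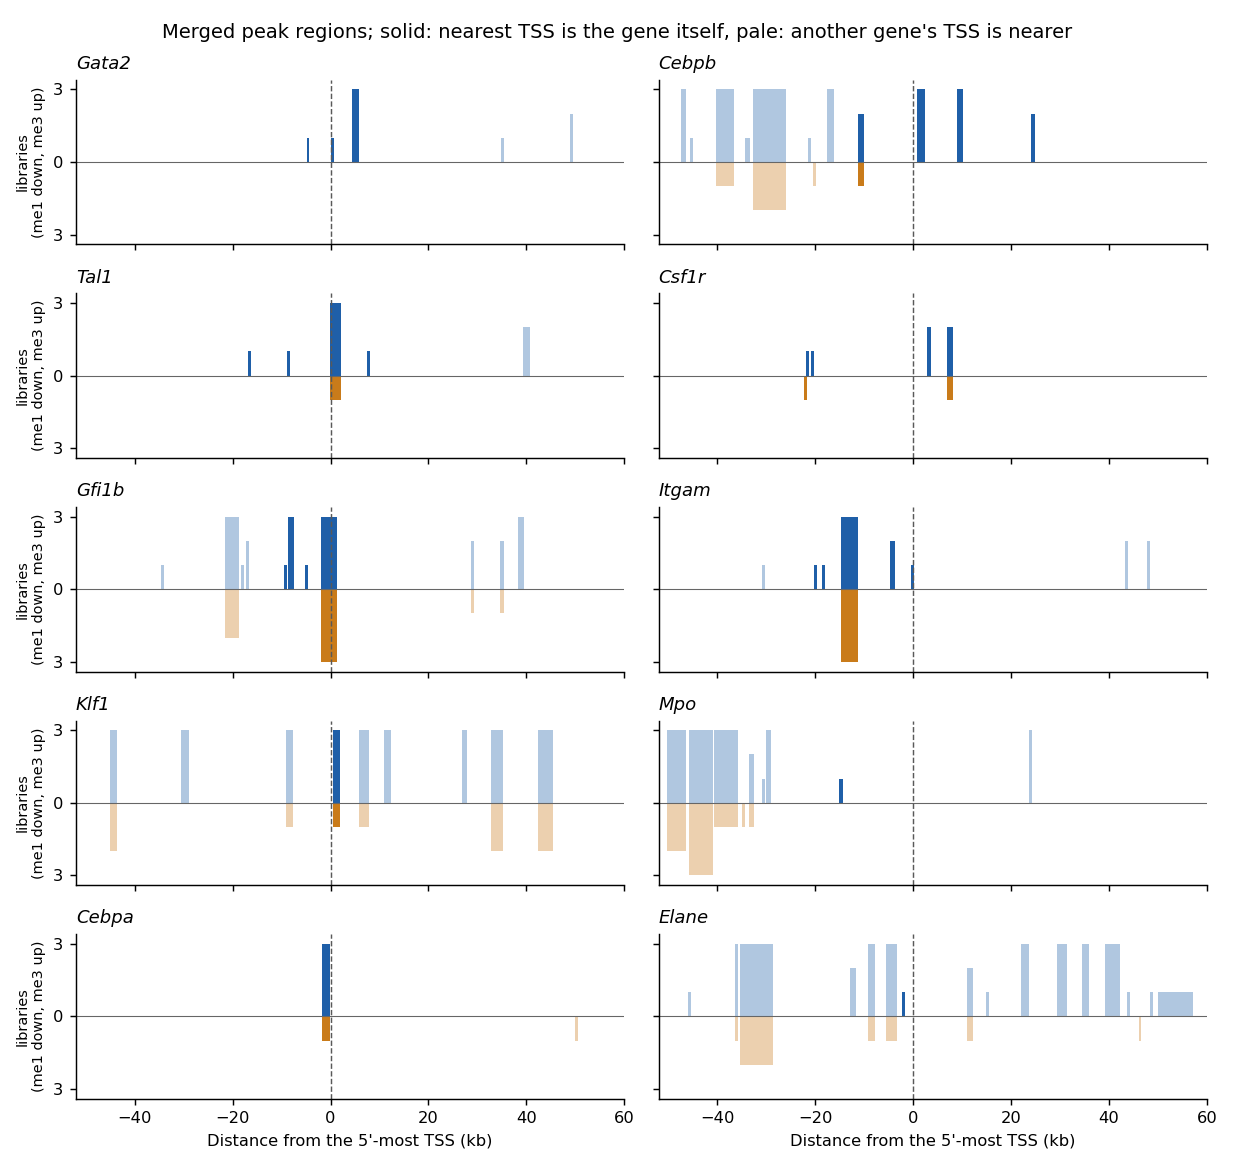
Merged peak regions within 50 kb of each gene against the distance from the 5′-most TSS (x axis, kb), with the number of H3K4me3 libraries upward in blue and of H3K4me1 libraries downward in orange. Solid regions had the gene's own TSS nearest and pale regions another gene's. Both marks reached 3 libraries in a solid region only at the Gfi1b promoter and upstream of Itgam.

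Upstream of Mpo, the region 45750 to 40947 bp before the TSS had both marks in all libraries, and the H3K4me1 peaks of the 3 libraries overlapped there. It belonged to a run of regions from 50355 to 28976 bp upstream, over Supt4a, the Mir142 host gene and Tspoap1, and another gene's TSS was nearer to each of them. Mir142 is a microRNA locus active throughout the blood lineages. Klf1 sat in a dense cluster of genes, and the H3K4me3 regions around it lay over or next to Farsa, Syce2, Gcdh, Dnase2a, Mast1 and Rtbdn, with none nearest to Klf1. The H3K4me3 regions around Elane likewise lay at Ptbp1, Plppr3, Prtn3, Med16, Kiss1r, R3hdm4 and Arid3a, and no distal region of Elane had Elane as the nearest gene.

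Distal H3K4me3 with the gene's own TSS nearest was seen in 3 of 3 libraries at Gfi1b and Cebpb as well as Itgam. At Gfi1b it lay 8046 to 7480 bp upstream in replicate 1, 8717 to 7561 bp in replicate 2 and 8067 to 7520 bp in replicate 3, in intergenic sequence. At Cebpb it lay 9016 to 9944, 9083 to 10064 and 9096 to 9797 bp downstream, in an intron of the lincRNA A530013C23Rik, with fold enrichments of 5.51, 7.76 and 4.66. Tal1, Gata2, Cebpa and Csf1r had no distal region with 3 libraries of a mark. The Tal1 neighbourhood held H3K4me3 in replicates 1 and 3 at 39327 to 40784 bp downstream of the TSS, nearer to Pdzk1ip1.

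Further genes of these lineages place the 10 in context. Of 20 further erythroid and megakaryocyte genes, 5, among them Epor, Zfpm1, Itga2b and Lyl1, had promoter H3K4me3 in 3 of 3 libraries. No promoter peak of either mark was found at 11 of the 20. Over all genes these shares were 56.2% and 33.9%. Zfpm1, which encodes the GATA partner FOG1, had 5772, 4511 and 5081 bp, and Lyl1, a relative of Tal1, had 5832, 5844 and 5486 bp. Both also had promoter H3K4me1 in 3 of 3 libraries, and both lay above Gfi1b in every H3K4me3 library. Of 20 further myeloid genes, 9 had promoter H3K4me3 in 3 of 3 libraries, led by Klf4 (2504 bp on average), Cd68 (2320 bp) and Csf2ra (2139 bp), with Prtn3, Cd14, Cebpe, Cebpd and Csf3r among those below them. By nearest TSS the count was 8, since Cd68 no longer had a peak in 3 of 3 libraries. None of the 20 myeloid genes had promoter H3K4me1 in 3 of 3 libraries (6.17% of all genes), and 8 had no promoter peak of either mark. The 9 with promoter H3K4me3 and the 8 without a peak stand beside the 56.2% and 33.9% of all genes.

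The B cell and GC genes had the longest promoter H3K4me3 of the lists. Their median H3K4me3 length was 7238 bp, against 1073 bp for the 10 lineage genes, 2695 bp for 10 housekeeping genes, 259 bp for the 20 myeloid and 64.0 bp for 10 T cell genes, and 0 for the 20 erythroid and megakaryocyte genes. Pax5 was covered over 10080 bp in each of the 3 libraries. Covered length counts only bases within 5 kb of a TSS, so its ceiling depends on the start sites of a gene. The equal Pax5 values are therefore a lower limit for the length of the mark there. H3K4me3 covered a TSS in 3 of 3 libraries at 9 of the 10 B cell genes, against 38.4% of all genes. Promoter H3K4me1 was present in 3 of 3 at 6 of them, against 6.17% of all genes. Among the T cell genes Lck stood out with 9676 bp on average, and Gata3 had 3010 bp. No promoter peak was found at 4 of the 10, near the 33.9% of all genes. These counts and medians are descriptions, and no test was run between lists.

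**Figure D5:**
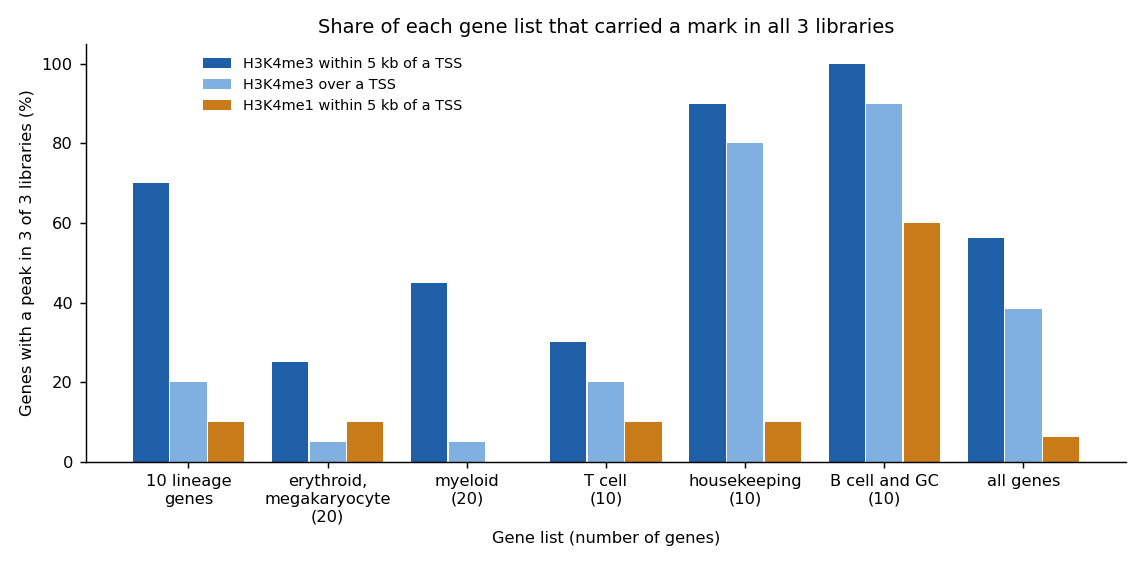
Share of the genes in each list (y axis, %) with H3K4me3 within 5 kb of a TSS (dark blue), H3K4me3 over a TSS (light blue) or H3K4me1 within 5 kb of a TSS (orange) in 3 of 3 libraries, beside all protein-coding genes. For the 10 lineage genes the shares were 70%, 20% and 10%, and for the B cell and GC list 100%, 90% and 60%.

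Restricting the peaks to a −log10 q of at least 5 left promoter H3K4me3 in 3 of 3 libraries at Tal1, Gfi1b and Klf1, 3 of 10, where 34.9% of all genes had it. The strongest promoter peak of a library had a −log10 q of 8.19 or more at Tal1, 6.56 or more at Gfi1b and 6.62 or more at Klf1. Gata2 and Itgam were below the limit of 5 in all 3 libraries and kept no promoter peak. Cebpa passed it in replicate 2 only (5.198) and Cebpb in replicate 1 only (5.275). The order of the 7 genes by mean length was Gfi1b, Tal1, Klf1, Cebpb, Cebpa, Gata2 and Itgam. Gfi1b did not overlap with Tal1 over the 3 libraries, whereas each of the others overlapped with the next in this order. Over all genes, 1346 others shared the presence of both marks in all 6 libraries with Gfi1b, of which Ncoa7 and Ptk2 had the most similar covered lengths. The pattern of Gata2, Cebpb and Itgam, H3K4me3 in 3 libraries and no H3K4me1, was shared by 4781 other genes, and the empty pattern of Mpo by 7412. Nearest in covered length were Paqr3 and Acot1 to Gata2, Mark4 and Ndufs7 to Tal1, Thg1l and Il3ra to Klf1, Zfand3 and Mycn to Cebpa, Rhpn1 and Zfand1 to Cebpb, and Insc and Gm49368 to Itgam. Gm49368 overlaps Itgam. For Csf1r and Elane, marked in fewer libraries, they were Slc24a2 and Plscr4, and Olfr314 and Aplp1.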

How the data were processed

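Peaks of 6 Mint-ChIP libraries of WT mouse spleen cells were analysed. The authors called peaks on each library separately and deposited narrow peaks for H3K4me1 and broad peaks for H3K4me3. The deposited values of a peak are a fold enrichment (ratio), a −log10 p and −log10 q, and a score, and narrow peaks have a summit. The submitters' processing notes name BWA, Picard, HOMER, Genrich and mm10. Which tool called the peaks, its settings and any control library are not given in the sources used here, and the files have no read totals.

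Peaks were assigned to protein-coding start sites of GENCODE M21 (GRCm38, the assembly of mm10) by the distance from the peak edge, in 3 zones: promoter (up to 5 kb), gene body (overlap outside the promoter) and distal (5 to 50 kb). A gene carried a mark when 3 of 3 libraries had a peak in the zone. Promoter covered length was compared between marks by a two-sided exact permutation test over all 21864 genes with Benjamini-Hochberg adjustment. The labels do not tie replicates to animals, so p-values measure only the spread between these libraries. Alternatives changed the window, the q limit, the number of peaks, the start sites, the assignment to the nearest gene and the libraries. All 10 genes are named. A gene of another list is named if it had promoter H3K4me1 in 3 of 3 libraries, was among the 3 longest in H3K4me3 of its list or, in the lineage lists, had promoter H3K4me3 in 3 of 3. Neighbours are named where a peak was nearer to them, and for each marked gene the 2 genes of the same pattern closest in length. Some genes that this rule names are not reported here. The genes and lists were chosen with earlier results of these data known. CpG and motifs were counted in the 300 bases upstream of the 5′-most TSS, and repeats are the soft-masked bases of the RefSeq assembly GRCm38.p6. H3K4me1 summit heights were the whole numbers whose Poisson −log10 p matched the deposited one within 0.0005, which recovered 100% of peaks. Python 3.11.15, numpy 2.4.6, pandas 2.3.3, scipy 1.17.1 and matplotlib 3.10.9 were used.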

Additional observations from a re-analysis of the deposited data

How the results depend on the processing

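Of 65 alternative counts of genes that the setting could change, 43 stayed within 1.5 times the reported one and 22 moved. Body H3K4me1 was at 0 throughout and is not counted here. With a −log10 q of at least 5, genes with promoter H3K4me3 went from 7 to 3, promoter H3K4me1 from 1 to 0, distal H3K4me1 from 5 to 0, body H3K4me3 from 1 to 0 and non-overlapping lengths from 7 to 3. Over all genes the q limit also took promoter H3K4me3 from 56.2% to 34.9%. With the 10000 best peaks per library the counts were 3 for promoter H3K4me3, 0 for promoter H3K4me1, 0 for body H3K4me3 and 3 for lengths. The Elane difference turned to -97.0 bp in that setting. Shares of all genes with the 10000 best peaks are not given here, so those counts have no such comparison. Peaks that cover a TSS gave 2 and 0 at promoters. A shared base in 3 libraries gave 0 for promoter H3K4me1, 1 for distal H3K4me1 and 0 for body H3K4me3. The nearest gene only gave 1 for distal H3K4me1, 3 for distal H3K4me3 and 0 for body H3K4me3. Body H3K4me3 was 2 with a 1 kb window or with 2 of 3 libraries, and 7 with every overlapping peak. Peak number in place of length gave 3 genes. The cause of these shifts was not tested.

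Leaving out each library in turn gave 7 to 8 genes for promoter H3K4me3 and for lengths. It gave 6 to 9 for distal H3K4me3 and 1 to 2 for body H3K4me3, with the 9 and the 2 found without H3K4me3 replicate 2. The rule then asked only for the libraries that were left, so these counts could stay or rise but not fall. They are therefore no check of how stable the counts are. Of 108 differences of single genes, without Mpo, which had none, 97 kept their direction, 10 became 0 and 1 reversed. Same-numbered libraries correlated at 0.171, 0.0652 and 0.0381 in their deviations for replicates 1, 2 and 3. Only replicate 1 passed the limit of 0.1, and the libraries were not treated as pairs in the main test. Libraries of different numbers ranged from -0.128 to 0.0987. With the replicate block, the smallest p of the exact sign-flip test is 0.25, and the count of non-overlapping lengths is 7 by construction, which says nothing about the pairing. Unknown read depth limits every missing peak, above all for H3K4me1.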
